A study of Mus musculus with 4 samples.

Results

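Small nucleolar RNA loci were examined in mRNA-seq of mouse tibialis anterior (TA) muscle, which lies along the shin. They were chosen by name. A row was taken if it had a value in all 4 per-sample tables and if a gene symbol in it, with symbols split at commas, began with Snora, Snord or Scarna. This gave 114 of 20605 rows: 31 Snora rows, 74 Snord rows, 8 Scarna rows and 1 row that carried a Snora and a Snord symbol. They carried 101 distinct labels, because Snord116l2 was listed in 10 rows and Snora19, Snora30, Snord53 and Snord58b in 2 rows each. TA muscle was taken from C57BL/6 mice of 3 months (Young) and of 20 months (Old). Each age has 2 samples, which the labels number as Old 1 and Old 2 or as Young 1 and Young 2. The labels give no treatment or genetic change, and the sex of the mice was chosen at random according to the methods. Values were FPKM, that is fragments counted relative to transcript length and to library size. The rows covered chromosomes 1 to 7 and 10 to 19, with chromosome 7 in part, and loci elsewhere were not analysed here.

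Small nucleolar RNAs (snoRNAs) are short noncoding RNAs that guide chemical changes of other RNAs in the nucleolus. Box H/ACA snoRNAs (Snora) guide pseudouridylation, box C/D snoRNAs (Snord) guide methylation of the ribose, and the related Scarna RNAs act on small nuclear RNAs in Cajal bodies. In mammals most of them lie in introns of host genes, often genes for ribosomal proteins or translation factors, and are trimmed out of the spliced intron. Mature snoRNAs lack a poly(A) tail, whereas the libraries here were made with an mRNA kit. FPKM is unstable at very short loci, since a few fragments on a short RNA give a large value, and the number of fragments behind a value is unknown here.

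The RNAs that were above 0 at one age only are shown first, since the comparison of the ages turns on them. The sequences are the transcripts of GENCODE release M21 on GRCm38, 5′ to 3′, written as DNA. All 9 are box H/ACA RNAs by name. Capitals mark the letters ACA where they fall within the last 7 bases of the RNA, which was the case in all but Snora44. The box H/ACA RNAs above 0 in both Old samples and listed at 0 in both Young samples were these.
Snora41: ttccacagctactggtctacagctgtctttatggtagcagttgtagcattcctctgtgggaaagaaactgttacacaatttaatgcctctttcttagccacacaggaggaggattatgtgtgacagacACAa
Snora75: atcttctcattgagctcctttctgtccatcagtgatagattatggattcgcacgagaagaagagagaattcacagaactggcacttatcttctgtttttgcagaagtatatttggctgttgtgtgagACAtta
Snora47: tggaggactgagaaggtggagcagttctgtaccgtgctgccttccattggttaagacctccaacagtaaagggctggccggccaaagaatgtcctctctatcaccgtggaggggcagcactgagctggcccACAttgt
Snora16a: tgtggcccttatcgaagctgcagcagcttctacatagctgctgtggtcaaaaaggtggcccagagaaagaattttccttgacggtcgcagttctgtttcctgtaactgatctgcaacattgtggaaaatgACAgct
Snora44: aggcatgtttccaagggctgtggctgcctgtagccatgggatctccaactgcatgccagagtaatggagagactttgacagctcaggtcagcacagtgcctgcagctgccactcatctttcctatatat
Snora15: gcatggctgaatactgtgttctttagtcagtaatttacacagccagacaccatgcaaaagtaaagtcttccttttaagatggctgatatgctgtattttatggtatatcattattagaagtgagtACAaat
Snora41 lies at chr1:63179004-63179135 on the plus strand in an intron of Eef1b2, a translation elongation factor subunit. Snora75 lies at chr1:86351169-86351301 on the minus strand in Ncl, which encodes nucleolin, and overlaps an exon of a Ncl transcript. Snora47 lies at chr13:95330600-95330737 on the plus strand in an intron of Zbed3, and its row also carries the microRNA symbol Mir1940. Snora16a at chr4:132309465-132309600 and Snora44 at chr4:132309941-132310069 lie on the plus strand in the noncoding host gene Snhg12, where they overlap exons of Snhg12 transcripts. Snora15 lies at chr5:129794546-129794676 on the plus strand in Cct6a, a subunit of the cytosolic chaperonin.

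The box H/ACA RNAs above 0 in both Young samples and listed at 0 in both Old samples were these.
Snora21: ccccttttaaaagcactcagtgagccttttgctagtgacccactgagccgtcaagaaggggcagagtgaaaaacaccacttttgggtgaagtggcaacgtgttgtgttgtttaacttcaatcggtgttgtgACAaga
Snora78: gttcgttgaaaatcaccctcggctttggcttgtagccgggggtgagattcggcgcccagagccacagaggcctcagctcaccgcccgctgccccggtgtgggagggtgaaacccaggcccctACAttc
Snora7a: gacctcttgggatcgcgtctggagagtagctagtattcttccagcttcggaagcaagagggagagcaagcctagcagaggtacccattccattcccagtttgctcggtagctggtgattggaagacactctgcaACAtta
Snora21 lies at chr11:97781639-97781775 on the minus strand in an intron of Rpl23, Snora78 at chr17:24719676-24719803 on the minus strand in an intron of the noncoding host gene Snhg9, and Snora7a at chr6:115807975-115808114 on the minus strand in Rpl32, overlapping an exon of a Rpl32 transcript. Rpl23 and Rpl32 encode proteins of the large ribosomal subunit. For contrast, 2 box C/D RNAs that were listed at 0 in all 4 samples are given, with the letters of box C and box D in capitals.
Snord47: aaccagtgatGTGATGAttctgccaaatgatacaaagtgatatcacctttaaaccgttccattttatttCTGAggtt
Snord104: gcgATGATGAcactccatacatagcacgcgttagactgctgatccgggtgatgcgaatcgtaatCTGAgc
Snord47 lies at chr1:161038082-161038158 in the noncoding host gene Gas5, and Snord104 at chr11:106500993-106501062 with no host gene found in GENCODE, both on the plus strand. Both are shorter than the H/ACA RNAs above, with 77 and 70 bases against 128 to 140.

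The letters were counted over the members whose row carried no host gene symbol and that had a GENCODE transcript. ACA was searched within the last 7 bases, and a C/D pair was ATGATGA or GTGATGA within the first 20 bases together with CTGA followed by at most 12 bases. Only the RNA strand was searched. Of 27 Snora entries, 25 held ACA and 0 held the C/D pair. Of 52 Snord entries, 30 held the C/D pair and 4 held ACA. Among all GENCODE snoRNA and scaRNA transcripts, ACA was found at this position in 63.4% of 1058 transcripts of 100 to 200 bases and in 9.96% of 462 shorter ones, and the C/D pair in 0.945% and 62.6%. Among the Snora entries, ACA was found in 19 of the 21 above 0 in a sample and in 6 of the 6 listed at 0 in all 4. These matches describe the letters only.

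Before the comparison, the likeness of the samples has to be stated. Values of Old 1 were mostly about 2 times those of Old 2. Of 7479 rows at 1 FPKM or more in both, 7479 were higher in Old 1, with a median ratio of 2.07, and 0 rows were above 0 in Old 2 and listed at 0 in Old 1. Young 2 was higher than Young 1 in 7623 of 7623 rows, with a median ratio of 2.04. At 10 to 30 FPKM in the first named sample, the log2 ratio had a robust SD over rows of 0.083 for Old 1 to Old 2 and 0.087 for Young 2 to Young 1, against 0.41 for Old 1 to Young 2 and 0.38 for Old 2 to Young 1. The labels do not say that the 2 samples of an age came from separate mice. The paper calls its mRNA-seq experiments for a sample independent, without saying whether they used separate mice. If they are 1 library processed in different ways, each age has n = 1 and no difference between the ages has a replicate check. The p-values below measure only the spread between these files. In the main fit this spread was pooled over rows of a similar level, with 20670 total degrees of freedom. An SE from that fit is therefore not the spread of its own row. For this reason values are given per sample, with no mean over an age.

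The muscle label was checked against marker genes. Of 13 muscle fiber markers 11 had a row. The fast fiber genes Tnni2, Mylpf, Actn3 and Pvalb and the fiber genes Tcap and Mb were high in all 4 samples, and the lowest of these values was 759.98 FPKM for Actn3 in Young 1. In contrast, Ckm was listed at 0 in all 4, Tnnt3 and Ttn in both Old samples, and Neb in Old 2 and Young 1. Of the 10 muscle markers tested with limma as described below, 2 were called lower in Old, Tnnt3 and Ttn, which entered the test only through Young and so had to differ. Over all 10335 tested rows, 12 (0.116%) were called lower. A value of 0 for such abundant muscle genes can be a failed estimate, so a snoRNA row at 0 is described here only as listed at 0.

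Most snoRNA loci were listed at 0. Of the 114 rows, 79 (69.3%) were at 0 in all 4 samples, against 22.7% of all 20605 rows and 86.3% of the 504 rows with a microRNA symbol. In Old 1 and Old 2, 30 and 17 rows were above 0, and in Young 1 and Young 2, 14 and 26. Thus both Old 1 and Young 2 had more rows above 0 than the other sample of their age, as they did among all rows (74.7% and 74.1%, against 53.6% in Old 2 and 54.1% in Young 1). The rows fell into classes. Only 7 of 31 Snora rows were at 0 in all 4 samples, whereas 66 of 74 Snord rows and 6 of 8 Scarna rows were.

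A row could carry a host gene symbol as well as the snoRNA, and its value then belongs to both. There were 9 such rows, and 9 of 9 were above 0 in at least 1 sample. Without them, 22 of 29 Snora rows, 2 of 68 Snord rows and 2 of 8 Scarna rows were above 0 anywhere. The 2 Snord rows were Snord17 and Snord64. Snord17 was at 19.7 FPKM in Old 1 and listed at 0 in the other 3 samples. Snord64, which lies in the imprinted region of chromosome 7 that also holds Snord116, was at 4.67, 0, 1.30 and 7.97 FPKM in Old 1, Old 2, Young 1 and Young 2. Each of the 10 rows of Snord116l2, copies from a cluster of brain-enriched snoRNAs, was listed at 0 in all 4 samples. A row labelled Snord118 was at 0 in all 4 as well. Snord118 is also known as U8 and is needed for processing of the large ribosomal RNA. Its RefSeq position is not within the span of that row, so the 0 is not shown to be that of the U8 gene. Of the Scarna rows, Scarna6 was at 12.9 FPKM in Young 2 and at 0 elsewhere, Scarna13 was above 0 in Old 1 and Young 2, and Scarna2, Scarna10, Scarna17 and Mir1843,Scarna3b were among the 6 at 0 in all 4.

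**Figure D1:**
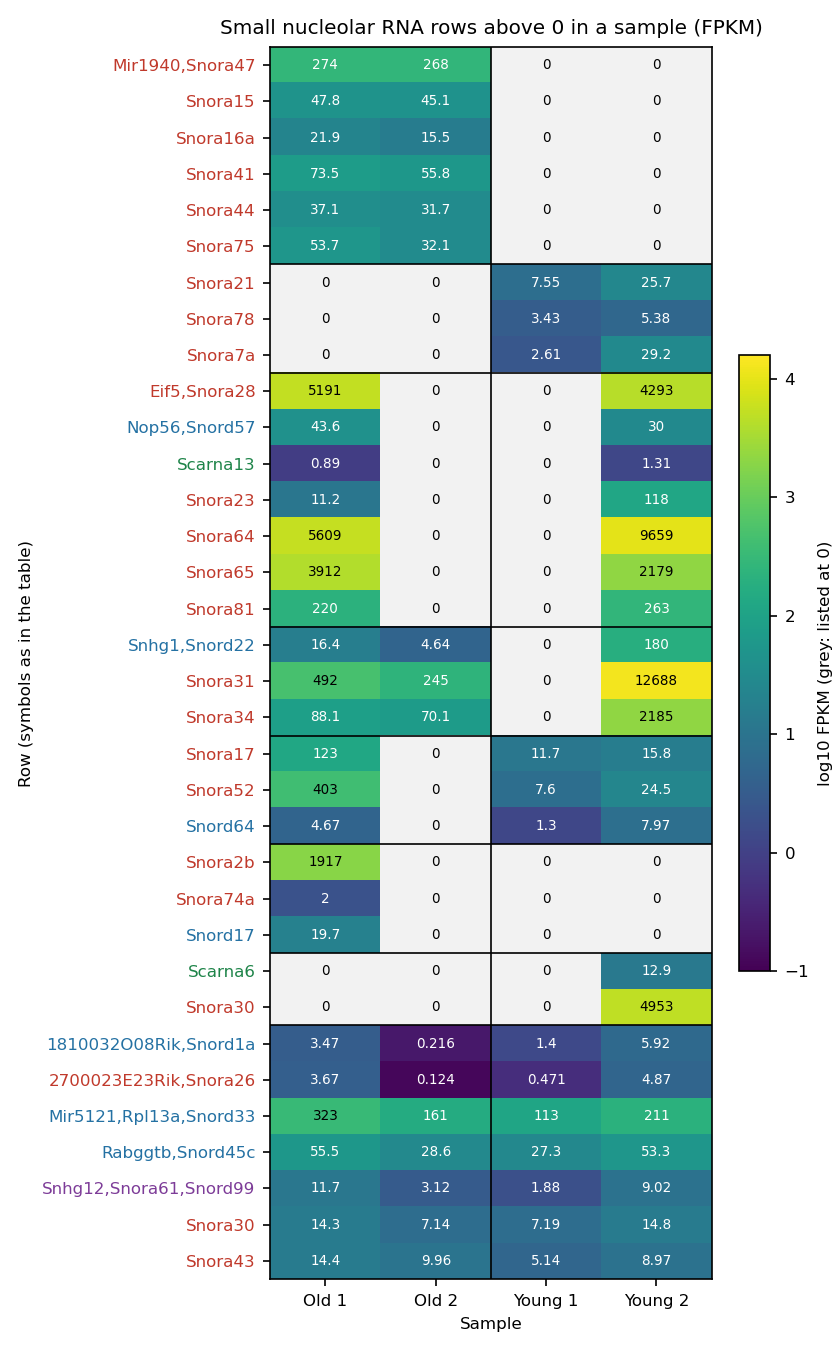
FPKM of 34 of the 35 rows above 0 in at least 1 of the 4 samples, with the value printed in each cell, colour on a log10 scale and grey for values listed at 0; rows are grouped by the samples in which they were above 0, and label colour gives the class (red Snora, blue Snord, green Scarna, purple both). The top 6 rows were above 0 only in Old 1 and Old 2, the next 3 only in Young 1 and Young 2, and the next 7 only in Old 1 and Young 2.

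Detection moved with the annotated length of the RNA. A RefSeq length was used only where the RefSeq position lay within the span of the row, which held for 90 of the 105 rows without a host gene symbol. The 15 others carry symbols that RefSeq does not place within their span, the rows of Snord116l2 among them. The border of 100 bases was chosen after the values were seen. Of 56 RNAs under 100 bases, 1 was above 0 in any sample (1.79%), and this was Snord64, annotated with 46 bases in a row that spans 820 bases. Of 16 RNAs of 100 to 119 bases 11 were above 0, of 9 RNAs of 120 to 139 bases 7 were, and of 9 longer ones 7 were. The median length was 127 bases for the 26 rows above 0 and 68 bases for the 64 rows at 0. Class and length move together, with a median of 117.5 bases for Snora and 68 for Snord, and their parts cannot be told apart for most rows. By RefSeq length the long Snord rows are few: Snord17 (221 bases) was above 0 in 1 sample, and Snord15a and Snord15b (148 and 145 bases) were at 0 in all 4. The border depends on the annotation. Snora20, Snora19, Scarna10 and Scarna2 had 61, 56, 71 and 61 bases in RefSeq but 128, 132, 325 and 414 in GENCODE. Snord8, Snord23, Snord67, Snord89 and Snord90 were also under 100 bases in RefSeq and above it in GENCODE. All of these were at 0 in all 4 samples. The part of length in these zeros was not tested.

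**Figure D2:**
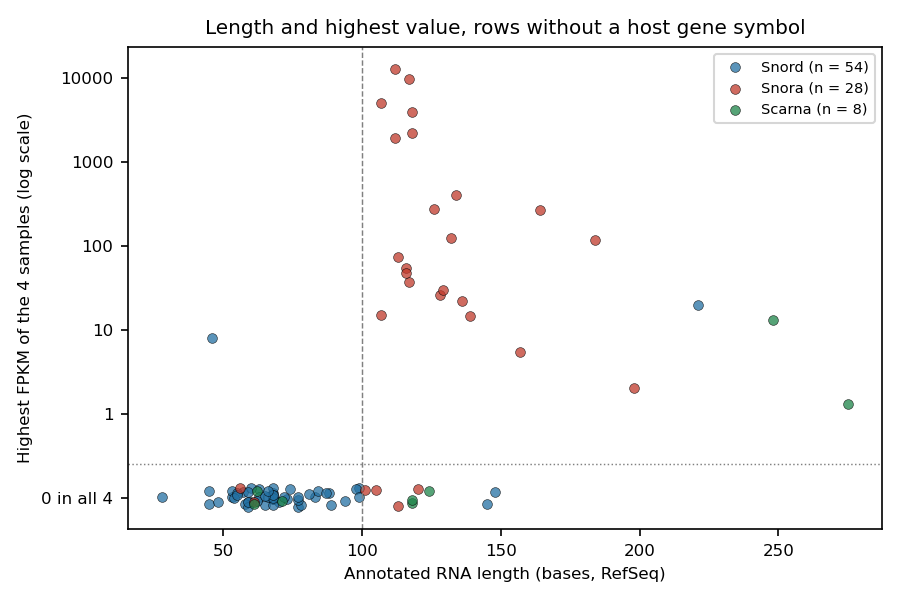
Highest FPKM of the 4 samples (log scale) against the annotated RNA length in bases for the 90 rows without a host gene symbol and with a length; points are rows, colour gives the class, the bottom band holds rows at 0 in all 4 samples and the dashed line marks 100 bases. Of the 56 points left of the line 1 lies above the bottom band, and the 6 highest points lie between 107 and 118 bases.

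Most host genes were above 0. A host gene was taken as a GENCODE gene that contains the RNA on the same strand. Of the 60 host genes with a row of their own, 58 were above 0 in all 4 samples and 34 were at 10 FPKM or more in all 4. Of the 44 hosts that hold a member listed at 0 in all samples, 43 were above 0 in all 4. Rpl23a, a ribosomal protein gene, was at 789, 396, 264 and 466 FPKM in Old 1, Old 2, Young 1 and Young 2, and its box C/D RNAs Snord42a, Snord42b and Snord4a were listed at 0 throughout. The host 2410006H16Rik (19.9, 6.69, 7.28 and 21.7 FPKM) and its Snord49a, Snord49b and Snord65 showed the same split. So did Wdr43, at 13.8, 7.07, 5.09 and 9.62 FPKM, with Snord92 and both rows of Snord53. Rpl13a shares its row with Snord33 (323, 161, 113 and 211 FPKM), and Snord32a, Snord34 and Snord35a of the same host were at 0. The row of 1810032O08Rik and Snord1a was at 3.47, 0.216, 1.40 and 5.92 FPKM, while Snord1b and Snord1c were at 0.

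The question of the study was which RNAs differ between Old and Young muscle. For each row that reached 1 FPKM in 2 or more samples, log2(FPKM + 1) was compared with limma, with Benjamini-Hochberg adjustment over 10335 tested rows. Of these, 18 rows (0.174%) were higher and 12 (0.116%) lower in Old at an adjusted p under 0.05. Of the 29 snoRNA rows tested, 6 were higher and 1 was lower in Old. The 6 higher rows were at 0 in both Young samples and the lower row was at 0 in both Old samples, so each entered the test only through the age at which it was high and had to differ. The count is therefore read no further. With at least 1 FPKM demanded in all 4 samples, 6 snoRNA rows remained and 0 were called. The rows called above are at 0 at one age and could not be among them. With same-numbered samples paired in a replicate block, 1 row was called higher (Mir1940,Snora47) and 0 lower, against 0.0194% and 0.029% of all tested rows. Leaving out an Old sample takes the 6 rows at 0 in both Young samples out of the test, so nothing is read from it. Without Young 2, where it was highest, Snora31 was above 0 in the Old samples only, and its log2 difference moved from 1.63 to 8.45. It then entered the test only through Old.

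Over all 20605 rows, 9 (0.0437%) were at 1 FPKM or more in both Old samples and at 0 in both Young samples, and 6 of these 9 were snoRNA rows. The reverse held for 10 rows (0.0485%), of which 3 were snoRNA rows. Tnnt3 and Ttn, muscle genes whose 0 can be a failed estimate, were also among these 10. Thus 5.26% and 2.63% of the snoRNA rows showed a clean split by age, against these background shares. Of the 504 rows with a microRNA symbol, 2 (0.397%) were split toward Old and 0 toward Young. With 2 samples per age, the smallest two-sided p of an exact permutation test is 0.333, so that test cannot pass 0.05 for any row here.

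The row of Mir1940 and Snora47 was highest in Old among the rows split by age. It was at 274 FPKM in Old 1 and 268 FPKM in Old 2, and it was listed at 0 in Young 1 and Young 2. Both Old samples stood far above both Young samples. On the log2(FPKM + 1) scale the fitted difference was 8.09 (SE 0.93, limma adjusted p = 1.0e-14). This difference depends on the pseudocount and is not a bound on the fold, as for every row below that is at 0 at one age. The row entered the test only through Old, so its adjusted p is a description and no support. The same holds for the other rows higher in Old below. Without a filter on low values, the limma adjusted p of this row was 0.31. Zbed3, the host, was at 2.88, 0.926, 1.30 and 3.72 FPKM in Old 1, Old 2, Young 1 and Young 2, and its ages overlapped (log2 difference -0.27).

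Snora41 was at 73.5 FPKM in Old 1 and 55.8 FPKM in Old 2, and at 0 in both Young samples (log2 difference 6.02, SE 0.96, limma adjusted p = 4.6e-07). Its host Eef1b2 was at 119, 61.0, 49.1 and 92.5 FPKM, with overlapping ages and a log2 difference of 0.34. Snora15 was at 47.8 and 45.1 FPKM in Old 1 and Old 2, and at 0 in both Young samples (5.57, SE 0.97, limma adjusted p = 8.8e-06). Its row spans only the 116 bases of the RefSeq RNA. The host Cct6a was at 80.6, 40.2, 28.7 and 52.2 FPKM. Snora75 was at 53.7 and 32.1 FPKM in Old 1 and Old 2, and at 0 in both Young samples (5.41, SE 0.98, limma adjusted p = 2.3e-05). The host Ncl was at 28.8, 14.8, 10.7 and 18.6 FPKM. Cct6a and Ncl were thus above 0 in every sample, with overlapping ages, while the snoRNA rows within them were split. Overlap does not show an unchanged host, since the samples of an age differed about 2-fold in scale. Eef1b2, Cct6a and Ncl were each higher in Old 1 than in Young 2 and in Old 2 than in Young 1. Zbed3 was lower in Old in both of these pairs.

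The remaining rows higher in Old came from 1 host. Snora44 was at 37.1 and 31.7 FPKM in Old 1 and Old 2 (5.14, SE 0.98, limma adjusted p = 0.00012). Snora16a was at 21.9 and 15.5 FPKM (4.28, SE 1.00, limma adjusted p = 0.0085). Snora16a and Snora44 were at 0 in Young 1 and Young 2. The Snhg12 row also carries Snora61 and Snord99. It was at 11.7 and 3.12 FPKM in the Old samples and at 1.88 and 9.02 FPKM in the Young samples. Its ages thus overlapped. However, its value in Old 1 was 1.29 times that in Young 2, and its value in Old 2 was 1.65 times that in Young 1. Both snoRNAs were at 0 in the Young samples and their host was not, although they share a span of 2347 bases in the table.

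The 3 rows above 0 in Young only entered the test through Young alone, so their fitted values are a description and do not set Snora21 apart from Snora7a and Snora78. Snora21 was at 7.55 FPKM in Young 1 and 25.7 FPKM in Young 2 and at 0 in both Old samples (log2 difference -3.92, SE 1.01, limma adjusted p = 0.0373). Its host Rpl23 was at 259, 131, 127 and 245 FPKM in Old 1, Old 2, Young 1 and Young 2, so its ages overlapped. Snora7a was at 2.61 FPKM in Young 1 and 29.2 FPKM in Young 2 (-3.38, limma adjusted p = 0.281). Its host Rpl32 was at 725, 258, 200 and 520 FPKM in Old 1, Old 2, Young 1 and Young 2, with overlapping ages. Rpl32 was higher in Old 1 than in Young 2 and in Old 2 than in Young 1. Snora78 was at 3.43 and 5.38 FPKM in the Young samples (-2.41, limma adjusted p = 1.00). Its host Snhg9 was at 14.6 FPKM in Old 1, at 15.2 FPKM in Young 2 and at 0 in Old 2 and Young 1, so that Young 1 had a value for the snoRNA and none for the host.

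**Figure D3:**
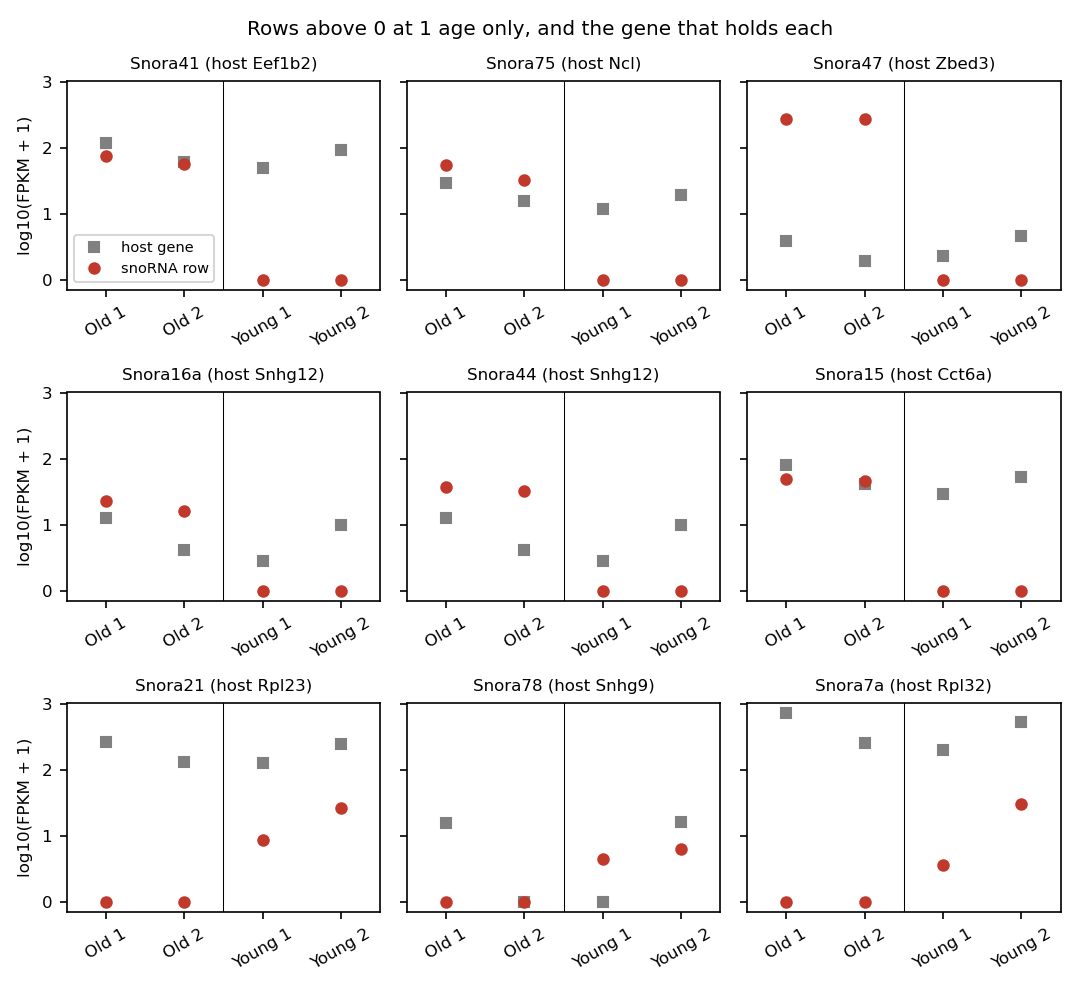
log10(FPKM + 1) in each of the 4 samples for the 9 rows above 0 at one age only (red circles) and for the gene that holds each (grey squares). The circles lie at 0 in both samples of one age in every panel, while the squares are above 0 in at least 1 sample of each age, with Snhg9 at 0 in Old 2 and Young 1.

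None of the 60 host genes with a row of their own passed the test in either direction (limma), and 0 had an unadjusted p under 0.05. Among all 10335 tested rows, 36 higher and 42 lower had one. The log2 differences of the hosts ran from -0.81 to 1.14 with a median of 0.18. The median log2 difference over all tested rows was -0.01 and that over the 29 tested snoRNA rows was 0.26. The median SE over all tested rows was 0.99. Host differences of this size could not pass with such an SE, so the test does not show unchanged hosts.

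A further group followed the sample and not the age. At 1 FPKM or more in Old 1 and Young 2 and at 0 in Old 2 and Young 1 were 6 snoRNA rows (5.26%), against 3.59% of all rows, a share near the background. The 7 rows above 0 in just those samples include Scarna13, at 0.890 FPKM in Old 1 and 1.31 FPKM in Young 2. Some had very large values. Snora64, within the ribosomal protein gene Rps2, was at 5609 FPKM in Old 1 and 9659 FPKM in Young 2. Snora65, within Rpl12, was at 3912 and 2179 FPKM in these samples. In Old 1 and Young 2 the row of the host was lower than that of the snoRNA, and the host was above 0 in all 4 samples: Rps2 was at 1136, 519, 631 and 1379 FPKM and Rpl12 at 496, 250, 171 and 322 FPKM.

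The row of Eif5 and Snora28 was at 5191 and 4293 FPKM in Old 1 and Young 2 and at 0 in the others. Eif5 is a translation initiation factor, and the value cannot be split between it and the snoRNA. The row of Nop56 and Snord57 was at 43.6 and 29.998 FPKM. Snora81, within the helicase gene Eif4a2, was at 220 and 263 FPKM, and Snora23, within Ipo7, at 11.2 and 118 FPKM. These 4 rows were at 0 in Old 2 and Young 1.

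Several rows were extreme in 1 sample. Snora31, within Tpt1, was at 492 FPKM in Old 1, 245 FPKM in Old 2, 0 in Young 1 and 12688 FPKM in Young 2, where its rank among all rows was 9. Its host Tpt1 was at 3758, 1438, 1114 and 2812 FPKM. The ages of Snora31 overlapped fully, since 1 Young sample was the lowest and the other the highest. Snora34 was at 88.1, 70.1, 0 and 2185 FPKM. Snora2b, which lies in the same host Kansl2, was at 1917 FPKM in Old 1 and at 0 in the other 3 samples. Kansl2 itself, a subunit of a chromatin-modifying complex, was at 46.8, 24.3, 23.3 and 44.7 FPKM. The extremes of Snora34 and Snora2b therefore lay in different samples although 1 host gene holds both. Snora30 had 2 rows in 1 span of 54988 bases. One was at 4953 FPKM in Young 2 and at 0 elsewhere, and the other was at 14.3, 7.14, 7.19 and 14.8 FPKM.

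Summed over the 105 rows without a host gene symbol, the FPKM came to 13339 (Old 1), 781 (Old 2), 46.6 (Young 1) and 32192 (Young 2). In the same order this was 1.91%, 0.344%, 0.0185% and 4.35% of the FPKM of all rows. The sum was set by few rows, as Snora31 alone held 33.9% of the sum of all 114 rows in Young 2 and Snora64 held 28.7% in Old 1. The order of these sums did not follow age.

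In the pair with more rows above 0, Old 1 and Young 2, 11 rows without a host gene symbol were at 1 FPKM or more in both. Their log2 ratio of Old 1 to Young 2 ran from -4.69 to 4.04 with a median of -0.26. Snora52, within the ribosomal protein gene Rplp2, was 16.4-fold higher in Old 1 (403 against 24.5 FPKM) and Snora17 was 7.75-fold higher (123 against 15.8 FPKM). Snora31 was 25.8-fold lower in Old 1, Snora34 24.8-fold lower and Snora23 10.5-fold lower. The 9 rows with a host gene symbol ran from -3.45 to 0.62, and the lowest of them was the row of Snhg1 and Snord22 (16.4 against 180 FPKM). These ratios compare 1 sample with 1 sample and have no test. In Old 2 and Young 1, Snora52 was at 0 and 7.60 FPKM and Snora17 at 0 and 11.7 FPKM, so the direction seen in Old 1 and Young 2 was not that of the other pair.

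Only 8 rows were above 0 in all 4 samples, and 6 of these carried a host gene symbol. Of the 2 others, Snora43 was the one row whose ages did not overlap. It was at 14.4 and 9.96 FPKM in Old 1 and Old 2 and at 5.14 and 8.97 FPKM in Young 1 and Young 2, so that Old 2 lay just above Young 2. Its log2 difference of 0.73 (SE 0.95) did not pass (limma adjusted p = 1.00). With Old 1 paired with Young 2 and Old 2 with Young 1 as a block, chosen after seeing the data, it did (limma adjusted p = 0.0167), in a fit that called 27.2% of all tested rows higher. The first row of Snora30 overlapped between the ages. Of the rows with a host symbol, Rabggtb with Snord45c was at 55.5, 28.6, 27.3 and 53.3 FPKM, with overlapping ages. The row of 2700023E23Rik and Snora26 was at 3.67, 0.124, 0.471 and 4.87 FPKM.

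The ratio between the Old samples was lower for many snoRNA rows than for most rows. Among the 10 snoRNA rows without a host gene symbol that were at 1 FPKM or more in both Old samples, the ratio of Old 1 to Old 2 ran from 1.02 to 2.01 with a median of 1.36, against a median of 2.07 over all 7479 rows. For 8 of these 10 the ratio was below the 5th percentile of all rows. The lowest ratio of all rows was that of Mir1940,Snora47, followed by that of Snora15. The 5 rows with a host gene symbol lay at 1.94 to 3.74. For Young 2 to Young 1, the 8 rows without a host symbol ran from 1.35 for Snora17 to 11.2 for Snora7a, with 3 below the 5th percentile and 2 above the 95th. These ratios are a description, since rows share the 2 libraries and their low or high values.

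**Figure D4:**
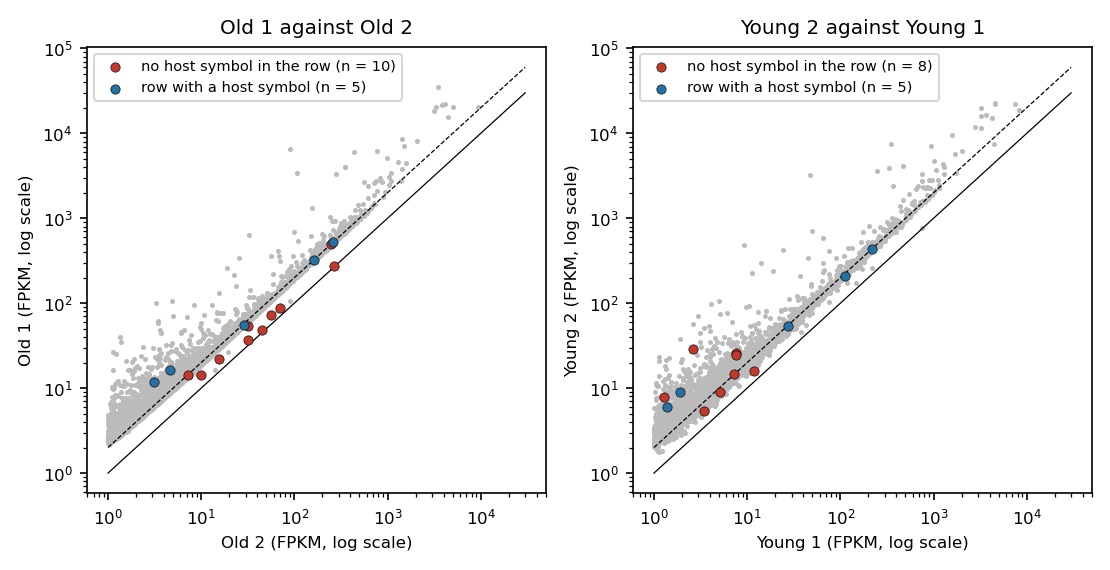
FPKM of Old 1 against Old 2 (left) and of Young 2 against Young 1 (right) on log axes for rows at 1 FPKM or more in both; grey points are all rows, red points snoRNA rows without and blue points with a host gene symbol, the solid line marks equal values and the dashed line a ratio of 2. In the left panel 8 of the 10 red points lie below the grey band along the dashed line, and the blue points lie close to or above that line.

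The proteins that bind snoRNAs were measured beside them. Of 23 snoRNP genes, 20 had a row, and all 20 were tested. None was called higher or lower in Old and 0 had an unadjusted p under 0.05 (limma), with 12 positive and 8 negative log2 differences and a median of 0.20. As for the host genes, differences of the size seen could not pass, so unchanged levels are not shown. Fbl, the methyltransferase of box C/D particles, was at 20.6, 9.86, 10.02 and 20.3 FPKM in Old 1, Old 2, Young 1 and Young 2. Nop58, a box C/D core protein, was at 8.17, 3.74, 3.13 and 5.35 FPKM. The box H/ACA core proteins Gar1, Nhp2 and Nop10 were at 5.75, 19.8 and 95.9 FPKM in Old 1 and at 6.16, 21.2 and 138 FPKM in Young 2. In Old 2 they were at 1.99, 7.05 and 48.4 FPKM, and in Young 1 at 2.24, 6.88 and 73.6 FPKM. Nop10 had the largest difference of the 7 core genes tested, -0.56 on the log2(FPKM + 1) scale (SE 0.96, limma adjusted p = 1.00). Gar1, Nhp2 and Nop10 were above 0 in all 4 samples, and Dkc1, the catalytic protein of box H/ACA particles, had no row.

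Some markers of other cells did not overlap between the ages. The 2 rows of the red blood cell genes Hba-a1 and Hba-a2 summed to 607 and 277 FPKM in Old 1 and Old 2 against 39.5 and 88.6 FPKM in Young 1 and Young 2, and so were higher in both Old samples. The collagen genes Col1a1 and Col3a1 were lower in both, Col1a1 at 10.6 and 5.45 FPKM against 23.2 and 46.3 FPKM and Col3a1 at 16.4 and 8.58 FPKM against 23.4 and 48.1 FPKM. The ages overlapped for Dcn and Pdgfra, which also mark fibroblasts, with Dcn at 119.8 and 61.9 FPKM against 51.0 and 96.9 FPKM. With the Hba genes as 1 entry, 1 of 16 marker entries was higher and 2 were lower without overlap, against 1.62% and 1.92% of the 10335 tested rows. Of 21 such markers 17 had a row, none was at 0 in any sample and none of the 14 tested that had a single row was called (limma, 0 higher and 1 lower at an unadjusted p under 0.05). Their summed FPKM was 1131 and 545 in Old 1 and Old 2 and 349 and 691 in Young 1 and Young 2. The part of other cells in the snoRNA values was not tested.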

How the data were processed

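mRNA-seq tables of 4 TA muscle samples were used, 2 per age, and the age and number were taken from the sample labels. According to the methods, RNA was prepared with a stranded mRNA kit, reads were trimmed, PCR duplicates were removed, and reads were aligned to the mouse genome (mm10) with TopHat2. The submitters' processing notes name TopHat2 2.0.10 and Cuffdiff 2.1.1. The authors deposited FPKM values per locus for each sample, which hold no read counts, so the depth is unknown. The last line of each table was incomplete and was left out.

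The members and gene lists were chosen with earlier results of these data known. Old and Young were compared on log2(FPKM + 1) with limma 3.58.1 (lmFit and eBayes with a trend, R 4.3.3) over rows that reached 1 FPKM in 2 or more samples, with Benjamini-Hochberg adjustment and a threshold of 0.05. The script was tested on simulated data. The simulated samples had no gap in scale within an age, unlike the real ones, so that test checks the script and not the calls. The study's own Cuffdiff test needs aligned reads and was not repeated. Rows sharing a symbol were kept separate. One row is counted but its values are not reported here. Named rows were those past the threshold, the 5 with the highest median in each class, those at 0 at one age and at 1 FPKM or more at the other, non-overlapping rows above 0 in all samples, and host genes. Other rows named for a single extreme value were chosen after their values were seen. Lengths came from RefSeq, and hosts and sequences from GENCODE M21. Alternatives were another pseudocount, other filters, median scaling, summed symbols, no trend, a replicate block, leaving out each sample, and a 2-fold rule without a test. The replicate numbers did not pair the samples (correlation of same-numbered deviations -0.89).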

Additional observations from a re-analysis of the deposited data

How the results depend on the processing

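The 6 snoRNA rows higher and 1 lower in Old were counted again under each alternative that kept all 4 samples. With a pseudocount of 0.1 FPKM the counts were 6 and 0, against 0.194% and 0.116% of all tested rows. Both counts were 0 without a filter on low values and also when 1 FPKM or more was demanded in each of the 4 samples. The stricter filter takes out every row listed at 0 in a sample, and 0.0553% and 0.0138% of all rows then tested were called. With rows of the same symbol summed the counts were 6 and 2, against 0.175% and 0.127% of all tested rows, the added label being Snora30. That label rests on a row at 4953 FPKM in Young 2 and at 0 elsewhere. Its other row was at 14.3, 7.14, 7.19 and 14.8 FPKM in Old 1, Old 2, Young 1 and Young 2. Young 1 thus lay between the Old samples. Under the replicate block, which pairs samples by number, the counts were 1 and 0, against 0.0194% and 0.029% of all tested rows. Pairing Old 1 with Young 2 and Old 2 with Young 1 as a block, chosen after seeing the data, gave 11 and 5. Snora43 and the Snhg12 row were among the higher ones and Snora78 among the lower. That fit called 2812 of the 10335 tested rows higher and 3373 lower. A 2-fold difference with no overlap and no test gave 6 higher and 3 lower rows. Without the 2-fold demand, 7 and 3 of the 29 tested snoRNA rows did not overlap, against 1.62% and 1.92% of all tested rows. Leaving out 1 sample leaves 1 sample in its age, which is then assumed to vary like the other age, so no count is given. Median scaling gave 5 and 1, against 0.319% and 0.3% of all tested rows. No trend gave 6 and 1, against 0.145% and 0.106%. The log2 difference of Snora43 was 0.38 to 1.08 over its 12 refits. For Snora15, median scaling gave a limma adjusted p of 0.0509, within a range of 1.7e-07 to 1.00 over its alternatives. FPKM gives no depth, so how many fragments lie behind a value or a 0 is unknown. The cause of these changes was not tested, except that leaving out an Old sample takes rows at 0 in Young out of the test, since 1 sample at 1 FPKM or more remains.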
